A study of Rattus norvegicus with 18 samples.

Results

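A set of 4 erythroid genes was followed in the livers of young rats: Hba-a3, an alpha globin gene, Hbb, the beta globin of the adult tetramer, Ahsp, the chaperone that holds free alpha hemoglobin soluble until it pairs with beta chains, and Alas2, the erythroid enzyme that carries out the first step of heme synthesis. They were found by symbol in the gene annotation of the array (Illumina RatRef-12 BeadChip), which placed 1 probe on each, so that the set held 4 of 22523 probes and 4 of 13337 named genes. The livers came from 18 Wistar rat pups whose dams had received tail vein injections of vehicle (G1: ethanol, Cremophor EL and water), of 0.002 mg/kg body weight of the flame retardant congener BDE-47 in the same vehicle (G2), or of 0.2 mg/kg (G3). Each dam had 6 injections, 5 days apart, from gestational day 15 to postnatal day 20, and pups were weaned on day 21 and killed on day 27. Every group held 6 pups from 3 dams, and within each group replicates 1 to 3 were male and replicates 4 to 6 female. One male and one female of each litter were taken, and the labels do not say which pups were littermates, so pups of 1 litter entered the tests as independent animals and p-values are too small where littermates were alike.

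In the fetus the liver is the main organ of red cell formation, and this role passes to the marrow and, in rodents, also to the spleen around and after birth. Young red cells that have left the marrow still carry globin messenger RNA for a short time, and a whole liver holds blood as well as hepatocytes. In red cell precursors GATA1 and KLF1 bind GATA and CACCC letters near the globin genes and Alas2, and globin chains, the chaperone and heme are made together. No perfusion of the livers is described in the sources used here, and in bulk tissue a smaller number of erythroid cells and less RNA in each of them cannot be told apart.

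The promoters of the globin genes are shown because these genes carry most of the erythroid signal on the array and have the best known erythroid control letters. The stretches are the 250 bases before the annotated start of transcription in RefSeq on the rat assembly GRCr8, each on the minus strand: Hba-a3 at chr10:15816944-15817193, Hba-a1 at chr10:15842581-15842830, Hbb at chr1:167663722-167663971 and Hbb-b1 at chr1:167643521-167643770. Capitals mark the CACCC box, the CCAAT box, the TATA box (TATAAA, in Hbb its variant CATAAA) and the GATA motif, searched on both strands. The GATA motif was taken as AGATA preceding a purine, or likewise TGATA preceding a purine. The letters were chosen with these sequences in view.
Hba-a3: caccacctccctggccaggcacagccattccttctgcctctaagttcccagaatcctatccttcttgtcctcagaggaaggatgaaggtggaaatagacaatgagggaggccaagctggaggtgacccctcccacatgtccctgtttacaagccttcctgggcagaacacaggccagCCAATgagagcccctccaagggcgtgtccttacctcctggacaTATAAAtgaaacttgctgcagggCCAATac
Hba-a1: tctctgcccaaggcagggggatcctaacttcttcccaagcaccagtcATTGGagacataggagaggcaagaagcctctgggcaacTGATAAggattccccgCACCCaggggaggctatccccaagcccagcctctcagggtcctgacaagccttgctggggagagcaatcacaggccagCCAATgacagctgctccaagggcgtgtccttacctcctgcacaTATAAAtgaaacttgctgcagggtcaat
Hbb: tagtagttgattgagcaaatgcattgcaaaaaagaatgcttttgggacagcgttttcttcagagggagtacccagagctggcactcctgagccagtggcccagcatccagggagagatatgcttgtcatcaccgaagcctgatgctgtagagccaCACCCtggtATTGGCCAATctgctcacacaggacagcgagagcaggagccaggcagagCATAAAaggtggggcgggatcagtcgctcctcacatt
Hbb-b1: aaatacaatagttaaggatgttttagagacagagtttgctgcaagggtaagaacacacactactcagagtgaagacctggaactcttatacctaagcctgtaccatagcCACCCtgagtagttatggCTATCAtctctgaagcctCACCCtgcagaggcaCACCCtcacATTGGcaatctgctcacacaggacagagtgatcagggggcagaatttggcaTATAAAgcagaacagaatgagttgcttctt
The Hba-a3 stretch held TATAAA 30 bases before the start and CCAAT 73 bases before it, and none of the CACCC or GATA letters searched. Hba-a1 had the same pair of boxes at 28 and 71 bases, with CACCC at 149 and TGATAA at 165. In the 60 bases that end with TATAAA, Hba-a3 and Hba-a1 shared 55 letters, while Hba-a1 and Hba-a2 shared all 60. Hbb carried CACCC 95 bases before its start, ATTGG directly followed by CCAAT at 86 and 81 bases, and CATAAA at 37. Hbb-b1 held 3 copies of CACCC, at 141, 105 and 90 bases, and TATAAA at 30. Of 33469 promoter stretches of this length, 49.2% held CACCC, 34.0% CCAAT, 22% TATAAA or CATAAA and 27.0% one of the GATA letters, so the letters taken singly are common. Ahsp and Alas2 are described here by their expression only.

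Expression is given as the log2 value that the authors deposited after normalization. Over all probes and pups the scale ran from 7.61 to 15.73, and 73.6% of probes lay within 0.5 of the median probe at 7.84, near the low end where little signal is measured. Hbb was close to the top of the scale (mean 15.11 over 18 pups), and its differences may be compressed there. Hba-a3 averaged 10.71 and Ahsp 9.58, both well inside the measuring range, whereas Alas2 at 8.16 was only 0.32 above the median probe. The pooled within-group SD was 0.552 for Hba-a3 and 0.466 for Ahsp, larger than that of 99.5% and 99.2% of probes, so these were among the most variable transcripts between pups of 1 group. Hba-a3 lies on chromosome 10 (15816099 to 15816943, GRCr8), Hbb on chromosome 1 (167662310 to 167663721), Ahsp on chromosome 1 (192310306 to 192315943) and Alas2 on chromosome X (22890650 to 22914046). Hba-a3 stands under the older symbol LOC287167 on the array. The probe sequences were not used here, and RNA of near-identical alpha or beta globin copies may bind the Hba-a3 and Hbb probes, so each globin value is uncertain as to its copy.

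The question of each comparison was whether perinatal BDE-47 left a difference in these transcripts a week after the last injection. Hba-a3 ranged in G1 from 10.11 to 12.06 with a median of 10.99, in G2 from 9.80 to 11.16 with a median of 9.92, and in G3 from 10.34 to 11.22 with a median of 10.88. Control males 1 and 2 were the highest of all pups (11.86 and 12.06), 4 of the 6 G2 pups lay below the lowest control, and G2 replicate 1 (11.16) was the one G2 pup above the control median. The G2 mean of 10.16 ± 0.52 (SD, n = 6) was 0.96 lower on the log2 scale than the G1 mean of 11.12 ± 0.73 (standard error of the difference 0.34, 95% interval −1.71 to −0.20, 1.94-fold lower, limma p adjusted over all probes 0.475). The difference did not pass the test here, whereas the paper called this gene lower in G2 by its own test. The reason for the unlike calls was not tested. G3, at 10.84 ± 0.33, was 0.68 above G2 (standard error 0.24, 0.17 to 1.2, 1.60-fold, limma adjusted p = 0.416) and 0.27 below G1 (standard error 0.31, −0.95 to 0.40, adjusted p = 0.687).

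Hbb ranged from 15.01 to 15.54 in G1 (median 15.20), from 14.54 to 15.24 in G2 (median 14.86) and from 15.02 to 15.36 in G3 (median 15.29). The 4 lowest pups of the study were all G2 pups, replicates 4, 5, 2 and 6, and the remaining pair of G2 pups lay among the controls. The mean of G2, 14.87 ± 0.30 (SD, n = 6), was 0.35 lower than the 15.22 ± 0.20 of G1 (standard error 0.14, −0.65 to −0.05, 1.28-fold lower, limma adjusted p = 0.486). Against G2, G3 was 0.37 higher (15.24 ± 0.14, standard error 0.13, 0.09 to 0.64, 1.29-fold, adjusted p = 0.414). G3 and G1 differed by 0.01 with an interval from −0.20 to 0.22 (limma adjusted p = 0.959).

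Ahsp ranged from 9.29 to 10.95 in G1 (median 9.75), from 8.85 to 9.69 in G2 (median 9.11) and from 9.17 to 10.31 in G3 (median 9.65). All 6 G2 pups lay below the control mean, and the 3 G2 females, at 8.85, 8.89 and 9.06, were the lowest of the 18 pups. G2 averaged 9.17 ± 0.31 (SD, n = 6) against 9.90 ± 0.63 in G1, a log2 difference of −0.73 (standard error 0.27, −1.32 to −0.15, 1.66-fold lower, limma adjusted p = 0.484). G3, at 9.67 ± 0.40, was 0.51 above G2 (standard error 0.19, 0.08 to 0.93, 1.42-fold, adjusted p = 0.463) and 0.23 below G1 (standard error 0.28, −0.85 to 0.40, adjusted p = 0.722).

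Alas2 read near the low end, and its distances were small. Its range was 8.06 to 8.53 in G1 (median 8.19), 7.89 to 8.17 in G2 (median 8.05) and 8.05 to 8.28 in G3 (median 8.18). Every G2 pup was below the mean of G1, and G1 replicate 2 (8.53) was the highest of all. The mean difference was −0.19 between G2 (8.05 ± 0.11, SD, n = 6) and G1 (8.24 ± 0.17, standard error 0.08, −0.37 to −0.02, 1.14-fold lower, limma adjusted p = 0.486). Between G3 (8.17 ± 0.10) and G2 it was 0.12 (standard error 0.06, 0.00 to 0.25, 1.09-fold, adjusted p = 0.527), and between G3 and G1 −0.07 (standard error 0.08, −0.24 to 0.10, adjusted p = 0.679).

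**Figure D1:**
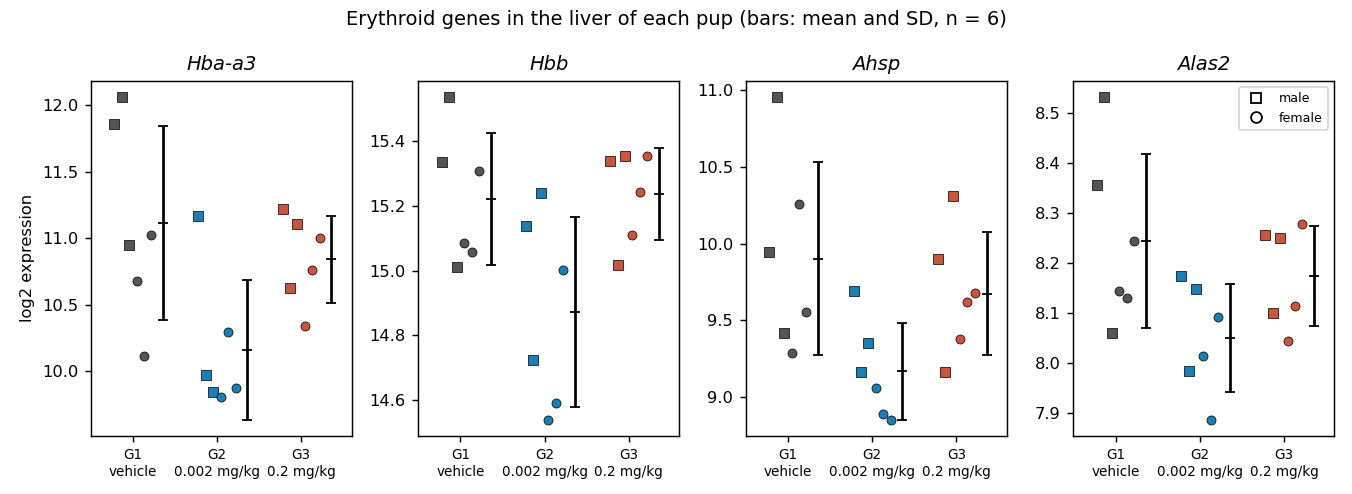
Log2 expression of Hba-a3, Hbb, Ahsp and Alas2 (vertical axes, each with its own range) in every pup of the vehicle, 0.002 mg/kg and 0.2 mg/kg groups, squares for males and circles for females, with the mean and SD of 6 pups beside each group. The G2 means lie below both others in each panel, the points of the groups overlap, and control males 1 and 2 are the highest pups for Hba-a3.

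Set against all probes, none of the 4 genes passed limma's test at an adjusted p of 0.05 in any comparison, where 0.0133% of probes did so in G2 against G1, 0.0799% in G3 against G1 and 0.0178% in G3 against G2. At an unadjusted p of 0.05, all 4 were lower in G2 than in G1, with a background of 5.59% of probes lower and 4.4% higher. All 4 were higher in G3 than in G2 (background 4.18% higher and 5.29% lower), and none of the 4 differed between G3 and G1 (background 9.98% lower and 8.59% higher). The comparisons share groups, G2 in the first and the third, so a low G2 enters both and the second count is not a repeat of the first. The 4 genes also moved together from pup to pup (Pearson's r from 0.71 to 0.88). They were chosen with earlier results of these data known, so a count of 4 does not stand for 4 independent results. No gene separated its groups without overlap, which 0.448% of probes did in G2 against G1, 1.95% in G3 against G1 and 0.608% in G3 against G2. Exact two-sided permutation tests over the 924 splits of 6 against 6 pups gave, for G2 against G1, p = 0.0303 for Hba-a3, 0.0433 for Hbb, 0.0238 for Ahsp and 0.0390 for Alas2. For G3 against G2 the exact p-values were 0.0325, 0.0303, 0.0368 and 0.0693, unadjusted for the number of genes. The F-test over the 3 groups gave limma p-values of 0.0178, 0.0138, 0.0323 and 0.0493, with adjusted values of 0.200, 0.185, 0.250 and 0.292, where 0.186% of all probes passed after adjustment and 17% before it.

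**Figure D2:**
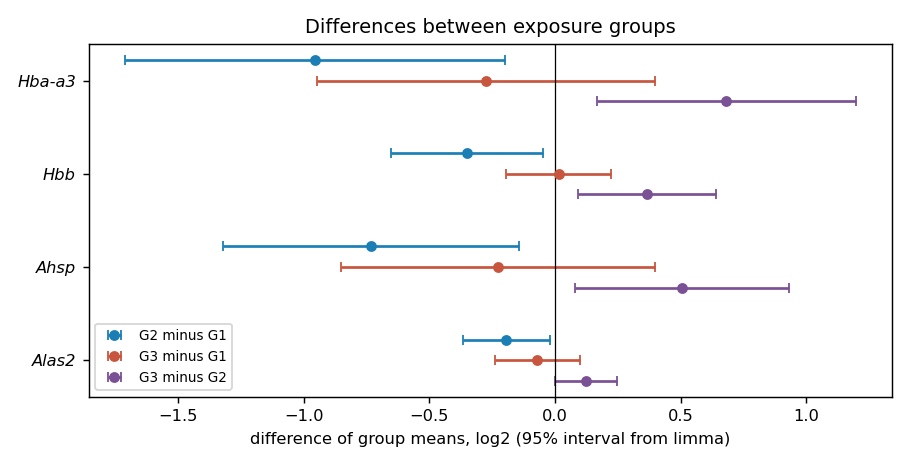
Differences of group means on the log2 scale (horizontal axis) with 95% intervals from limma for the 4 genes, in G2 minus G1, G3 minus G1 and G3 minus G2. The intervals of G2 minus G1 lie below 0 and those of G3 minus G1 include 0. The low end for Alas2 in G3 minus G2 is at 0.00.

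The size of the G2 difference rested in part on control males 1 and 2. Both were above the control mean for all 4 genes, and they also stood at the end of the first principal component over all probes (scores of 20.18 and 26.38 against 14.25 or less in the other 16 pups, 31.3% of the variance). With both left out, an alternative chosen after their values had been seen, the log2 difference of G2 from G1 was −0.53 for Hba-a3, −0.24 for Hbb, −0.46 for Ahsp and −0.09 for Alas2, and the limma p-values before adjustment were 0.0959, 0.129, 0.0600 and 0.140. Against the remaining controls the difference of G3 was 0.15 for Hba-a3, 0.12 for Hbb, 0.05 for Ahsp and 0.03 for Alas2. Leaving them out also left fewer males than females in G1 alone, and males had higher means for each of the 4 genes. The part of this imbalance and of these pups' other differences in the result was not tested.

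Males had higher means than females for each of the 4 genes. The sex fit over the 18 pups held no term for exposure group, so differences between the groups remain in its standard errors. On the log2 scale females were lower by 0.55 for Hba-a3 (standard error 0.28) and by 0.37 for Ahsp (0.24). For Hbb they were lower by 0.16 (0.12) and for Alas2 by 0.10 (0.07). None passed the test (limma unadjusted p from 0.0682 to 0.216, adjusted p 0.974 for all, background 0.00444% of probes after adjustment and 1.95% lower in females before it). In the control group the sexes were 11.62 ± 0.59 (males, SD, n = 3) and 10.61 ± 0.46 (females) for Hba-a3. Within males the G2 difference from G1 was −1.29 for Hba-a3, −0.26 for Hbb, −0.70 for Ahsp and −0.21 for Alas2. In females it was −0.62, −0.44, −0.76 and −0.18, so every gene had a lower G2 mean in both sexes. The G3 difference from G2 was positive in both sexes for all 4 genes, from 0.10 to 0.66 in males and from 0.15 to 0.71 in females. The test of the sex difference in the response gave adjusted p-values of 0.9997 in G2 and 0.9996 in G3 for each gene (limma, background 0% and 0.00444% of probes), and its interval is wide, with standard errors of 0.52 for Hba-a3 and 0.51 for Ahsp.

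The other globins differed from G1 in the same direction in G2 but by unlike amounts. Hbb-b1, a second adult beta globin, was 13.68 ± 0.50 (SD, n = 6) in G1, 13.21 ± 0.40 in G2 and 13.85 ± 0.27 in G3, with log2 differences of −0.47 (standard error 0.25) between G2 and G1 and 0.63 (0.18) between G3 and G2, neither past the adjusted test in limma. Hba-a1, the major alpha globin, read near the top of the scale in every pup (15.06 to 15.52) and differed by −0.06 in G2 and −0.04 in G3 from G1. The probe named Hba-a2 and those of the embryonic globins Hbe1 and Hbe2 and of Hbg1 stayed at the low end. They lay between 7.71 and 7.90 in all 18 pups. In all, 8 globins of a list of 17 were measured, 4 of them within 0.5 of the median probe. In G2 all 8 had lower means than in G1, but the difference was only −0.003 for Hba-a2 and −6.7e-05 for Hbg1. In G3 all 8 had higher means than in G2. Both counts share G2, and the share of all probes with a lower or higher mean was not taken. At an unadjusted p of 0.05, 3 were lower in G2 than in G1 (background 5.59% of probes): Hba-a3 and Hbb, which belong to the 4 genes, and Hbe1, at the low end. In that comparison the median log2 difference was −0.06 against 0.00 over all probes.

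Alas2 was not representative of the heme pathway. Of 11 measured genes of heme synthesis, Alas2 and Slc25a38, the mitochondrial glycine carrier of erythroid cells, were lower in G2 than in G1 at an unadjusted p of 0.05, and Cpox, Tmem14c and Clpx were higher (background 5.59% of probes lower and 4.4% higher). Slc25a38 went from 9.46 ± 0.20 (SD, n = 6) to 9.28 ± 0.10 and Cpox, coproporphyrinogen oxidase, from 9.90 ± 0.29 to 10.25 ± 0.14. Liver makes heme for its cytochromes as well, and Alad, Urod and Fech, which act in all cells, differed by 0.08, −0.15 and −0.08 on the log2 scale in G2. Urod was 0.14 higher in G3 than in G2. None of the 11 passed the adjusted test in any comparison, and the median difference of the list in G2 was 0.00. Of 13 genes of heme use and breakdown, Abcg2, a porphyrin exporter, was 0.49 lower in G2 than in G1 and 0.29 higher in G3 than in G2, and heme oxygenase Hmox1 differed by 0.11 in G2 and 0.06 in G3 from G1.

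Among proteins of the red cell membrane, 5 of 14 measured genes were lower in G2 than in G1 at an unadjusted p of 0.05 and none higher (background 5.59% and 4.4%). They were Epb41 (protein 4.1 of the membrane skeleton), Aqp1 (the water channel), Add2 (beta adducin), Rhd (the Rh antigen) and Slc4a1 (the band 3 anion exchanger). Epb41 was 11.75 ± 0.15 (SD, n = 6) in G1, 11.36 ± 0.08 in G2 and 11.53 ± 0.13 in G3. Its G2 pups, at 11.25 to 11.48, did not overlap the controls, at 11.59 to 11.89, as was so for 0.448% of all probes. The log2 difference of G2 from G1, −0.39 (standard error 0.07), had an adjusted p of 0.139 in limma. Aqp1 differed by −0.37, and Add2, Rhd and Slc4a1, which all read within 0.5 of the median probe, by −0.27, −0.15 and −0.09. Aqp1 and Epb41 are also made by cells other than red cells. In G3 against G2, Epb41, Rhd, Add2 and Aqp1 were higher and Gypc was lower at that p. The median of the 14 genes was −0.02 in G2 against G1, and 10 of them lay within 0.5 of the median probe.

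Among 23 measured enzymes and late proteins of red cells, Bpgm, Gapdh, Bnip3l and Ucp2 were lower in G2 than in G1 at an unadjusted p of 0.05 and catalase (Cat) was higher (background 5.59% lower and 4.4% higher). Bpgm makes 2,3-bisphosphoglycerate in red cells. Its level was 10.76 ± 0.42 (SD, n = 6) in G1, 10.30 ± 0.22 in G2 and 10.64 ± 0.24 in G3, a log2 difference of −0.46 (standard error 0.18) in G2 and −0.12 (0.19) in G3 from G1. Bnip3l, which in mouse is needed to clear mitochondria from reticulocytes, differed by −0.29 in G2 and −0.11 in G3. Alox15, a reticulocyte lipoxygenase, was −0.58 (standard error 0.28) in G2 with a limma p of 0.0610 before adjustment. In the list of 21 iron genes, ferroportin (Slc40a1), Steap3 and Heph were lower in G2 than in G1 at that unadjusted p. Hfe was higher (background 5.59% lower and 4.4% higher), and the median difference of the list was 0.06. Ferroportin was 0.28 lower in G2 than in G1 and 0.33 higher in G3 than in G2. Hepcidin (Hamp) differed by 0.17 and 0.04 from G1 in G2 and G3. No gene of these lists passed the adjusted test in any comparison.

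**Figure D3:**
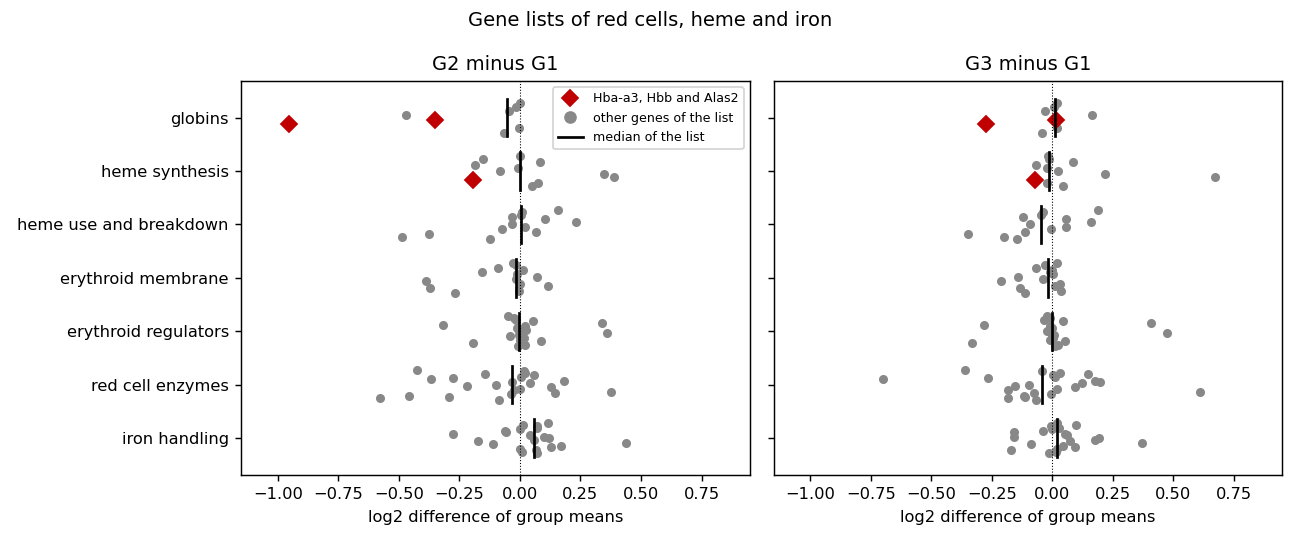
Log2 differences of group means (horizontal axis) of each measured gene in 7 lists of red cell, heme and iron genes, for G2 minus G1 on the left and G3 minus G1 on the right, with red diamonds for Hba-a3, Hbb and Alas2 and a black bar at the median of each list. In G2 Hba-a3 (−0.96) and Alas2 (−0.19) are the lowest of their lists, and Hbb (−0.35) lies above Hba-a3 and Hbb-b1 (−0.47). Every list median is within 0.1 of 0.

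Several transcripts of red cell precursors were near the low end in every pup. Others read higher: Tal1 ran from 8.23 to 8.46, and Nfe2 averaged 9.03 and Ahsp 9.58 over the 18 pups. Gata1 ran from 7.70 to 7.80, Klf1 from 7.76 to 7.87, the erythropoietin receptor gene Epor from 7.76 to 7.90, Rhag from 7.74 to 7.82 and Gfi1b from 7.69 to 7.77 over the 18 pups. Gata1 was 0.04 lower in G2 than in G1 and 0.04 higher in G3 than in G2, each at an unadjusted p under that limit (0.0178 and 0.0164, limma), on a span of 0.10 over all pups. Of 19 regulators, 10 had lower means in G2 than in G1, Gata1 alone at an unadjusted p of 0.05, and Nfe2l2 and Hif1a, which are active in all cells, were higher at that p (background 5.59% lower and 4.4% higher). Nfe2 differed by −0.32 and Eif2ak1 by −0.19, and 15 of the 19 lay within 0.5 of the median probe. The summed level of the 11 measured erythroid markers, which hold the 4 genes and Slc4a1, was 15.20 to 15.77 in G1, 14.73 to 15.37 in G2 and 15.19 to 15.53 in G3 on the log2 scale. Linear values were summed, so Hbb (mean 15.11) made up most of this level, and the ranges mainly restate Hbb. The next highest marker, Hba-a3, averaged 10.71.

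Markers of other blood cells were set beside these values. Summed leukocyte markers (16 genes) were 12.13 to 12.32 in G1, 12.07 to 12.28 in G2 and 12.09 to 12.25 in G3, and 11 of the 16, among them the defining S100a9, Ms4a1, Cd3e and Mpo (7.69 to 7.93 over all pups), lay within 0.5 of the median probe. The 5 above that band were S100a8, Lcn2, Ncf1, Coro1a and Laptm5, with means over 18 pups of 8.4 to 8.87. Summed platelet markers (6 genes) were 10.72 to 11.06, 10.70 to 11.00 and 10.66 to 10.87, with Ppbp and Gp9 at 7.78 to 7.91. Pf4, the one platelet marker above the band, differed by −0.21 in G2 and −0.39 in G3 from G1, the latter at an unadjusted limma p of 0.00938 (background 9.98% lower). Most probes in both sums lay at the low end, so the sums could change little. Of the leukocyte markers 11 had lower means in G2 than in G1 and 5 higher, and of the platelet markers 5 and 1. The share of all probes with a lower mean was not taken. At an unadjusted p of 0.05, 1 of 16 leukocyte markers was higher in G2 than in G1 (Ptprc). One of 6 platelet markers was lower (Gp1bb), where 4.4% of all probes were higher and 5.59% lower. Hepatocyte markers (11 genes) summed to 18.37 to 18.54 in G1, 18.46 to 18.56 in G2 and 18.34 to 18.59 in G3, and albumin was at 15.44 or more in every pup. The amount of blood in each liver was not measured. G3 replicate 2 carried skeletal muscle transcripts (Acta1 at 13.70 against at most 8.91 in the other pups). Without it the log2 difference of G3 from G2 was 0.72 for Hba-a3, 0.41 for Hbb, 0.61 for Ahsp and 0.14 for Alas2.

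From pup to pup the 4 genes moved together. Over 18 pups Pearson's r was 0.72 for Hba-a3 with Hbb, 0.71 for Hba-a3 with Ahsp, 0.81 for Hba-a3 with Alas2, 0.74 for Hbb with Ahsp, 0.88 for Hbb with Alas2 and 0.83 for Ahsp with Alas2. Permutation p-values, adjusted over the 84 values computed in this family, were at most 0.00494 for these. The tightest pair was Hbb with Alas2 (r = 0.876 and Spearman's rho = 0.920, each with a permutation p of 1e-05, the smallest that 100000 permutations can give), with r = 0.883 when the 2 pups farthest from the median of Hbb were left out. After the group means had been taken out it stayed at r = 0.859 and rho = 0.825 (permutation p adjusted 0.00028 and 0.00042). Within single groups r for this pair was 0.978 in G1, 0.889 in G2 and 0.870 in G3, and within sexes 0.918 in males and 0.862 in females.

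The loosest pair was Hba-a3 with Ahsp. Its r was 0.712 and rho 0.769 over 18 pups (permutation p adjusted 0.00494 and 0.0029), and 0.548 and 0.523 after the group means had been taken out (0.0804 and 0.0806). Without G1 replicate 2 and G2 replicate 1 the latter r was 0.200. In G3 alone, which holds neither of those pups, r was 0.784, and in G2 it was 0.678. In G1 female 5 had the lowest control value of Hba-a3 (10.11) and the second highest of Ahsp (10.26), and r in G1 was 0.457 with this pup and 0.989 when it and replicate 2 were left out. The remaining pairs had r from 0.568 to 0.742 on deviations from the group means (permutation p adjusted from 0.00973 to 0.0482). Over Hba-a3 with Hbb, rho on the deviations was 0.470 (adjusted 0.0899) and r fell to 0.357 without the same 2 pups. Within females r ranged from 0.375 to 0.862 over the 6 pairs and within males from 0.705 to 0.921.

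**Figure D4:**
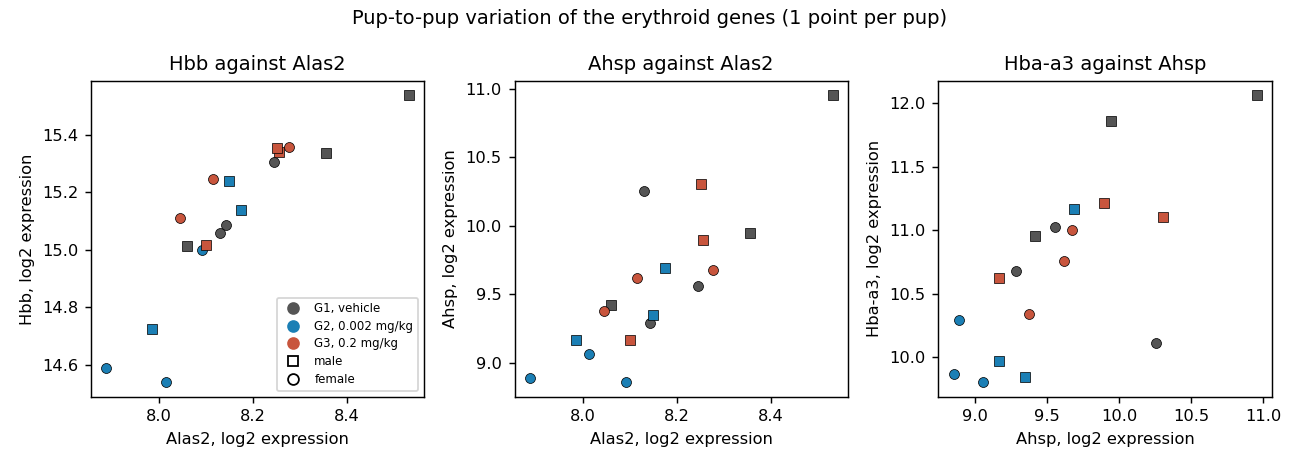
Each point is 1 of 18 pups, coloured by group, with squares for males and circles for females. The panels set Hbb against Alas2 (r = 0.876), Ahsp against Alas2 (r = 0.825) and Hba-a3 against Ahsp (r = 0.712), all in log2 expression, and G1 replicate 2 is the highest pup on both axes in each panel.

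Genes whose pattern was most like that of the erythroid genes were ranked by Pearson's r with their mean standardized level over 18 pups, as a description. Of 22519 other probes, 16 had r of 0.8 or more, 11 of them named. In order the 12 named genes with the highest r were Alox15 (0.91), Bpgm (0.90), Add2 (0.86), Slc4a1 (0.84), Cct5 (0.83), Rhd (0.82), Hemgn (0.82), Tfdp2 (0.82), Lyl1 (0.81), Rabif (0.80), Tpi1 (0.80) and Epb41 (0.80). Neighbours in this order had close values of r, and no test of their order was made. Alox15, Bpgm, Add2, Slc4a1, Rhd and Epb41 were on the red cell lists above, which hold 72 further genes, 0.54% of named genes. Hemgn (hemogen) is expressed in blood-forming cells, Lyl1 is a hematopoietic transcription factor, Tfdp2 is a partner of E2F factors, Cct5 is a subunit of the cytosolic chaperonin and Tpi1 is a glycolytic enzyme. With the group means taken out, r of the 12 genes ran from 0.64 (Tpi1) to 0.90 (Alox15), and over G2 and G3 alone from 0.61 (Rabif) to 0.95 (Bpgm).

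Single genes had their own nearest neighbours. Ahsp was most like Rhd (r = 0.929), Hemgn (0.913), Bpgm (0.871) and Bnip3l (0.868). Hbb was most like Vps36 (0.839), Hbb-b1 (0.821), Bpgm (0.802) and Slc38a5 (0.789), and for Hbb with Hbb-b1 binding of shared RNA cannot be told apart from a like pattern. Alas2 followed Alox15 (0.876), Slc4a1 (0.866), Bpgm (0.855) and Cct5 (0.817), and Hba-a3 followed Alox15 (0.826), Psmd7 (0.792), Slc4a1 (0.775) and Gtf2a1 (0.773). Bpgm was thus among the nearest 4 for every gene but Hba-a3.

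**Figure D5:**
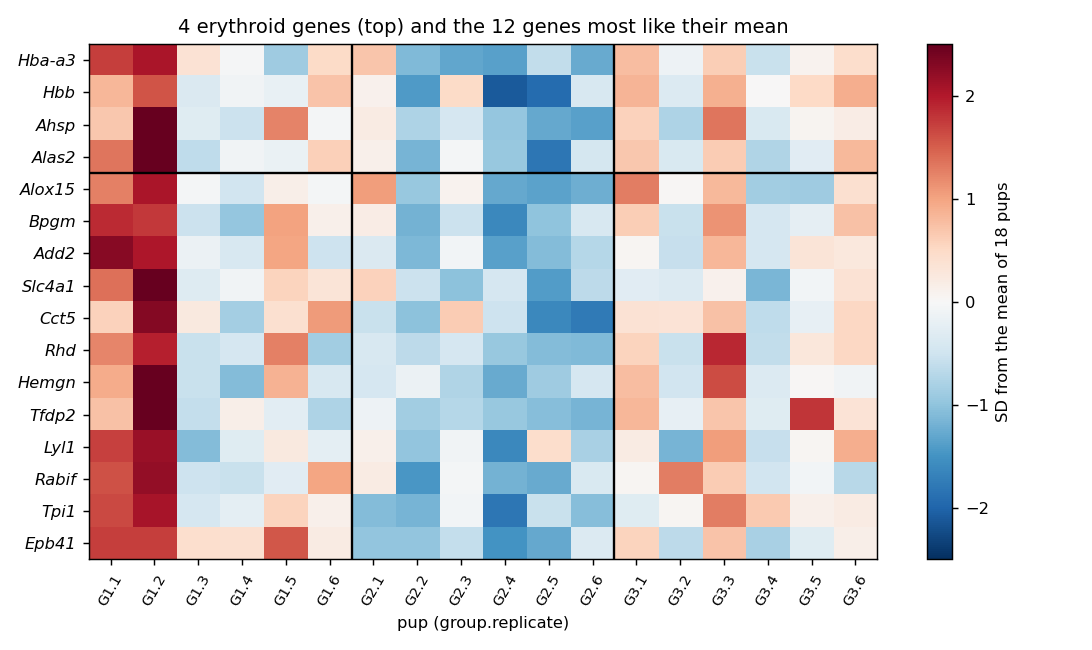
Standardized expression (colour, in SD from the mean of 18 pups) of Hba-a3, Hbb, Ahsp and Alas2 above the line and of the 12 genes most like their mean below it, with 1 column per pup in the order G1, G2 and G3. G1 replicates 1 and 2 are above the mean of all pups for each of the 16 genes, and G2 replicates 4 to 6 are below it for most.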

How the data were processed

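Liver RNA of each pup was hybridised to 1 Illumina RatRef-12 array, and log2 expression was deposited by the authors for 22523 probes after preprocessing and normalization with lumi. The sources used here give neither its version nor the normalization method or any detection filter, so the signal over background of a single probe is unknown. No bead-level depth was analysed here, and the number of arrays limits the precision. Probes were named through the platform annotation, updated by Entrez ID with the RefSeq gene table of GRCr8: 13793 probes had 1 symbol, 8730 had none and 13752 matched the table.

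Differences between groups were fitted for each pair of groups across all probes with limma 3.58.1 in R 4.3.3 (lmFit and eBayes), with the Benjamini-Hochberg adjustment over 22523 probes and a threshold of 0.05. The study's Bayesian test and its 2-fold limit were not used as the main rule, and the limit was tried as an alternative. An F-test, a sex term and sex by exposure terms used all 18 arrays. Single genes were also tested by exact permutation. Where a gene had several probes, that of highest mean stood for it. Summed marker levels are the log2 of summed linear values. The likeness ranking used named probes only. The 4 genes and the lists of other genes were chosen with earlier results of these data known. Named genes were the 4 genes, list members at an unadjusted p of at most 0.05 with further list members given as values, and the 12 and 4 named probes of highest r. The pairwise limma fit was tested on simulated data for G2 against G1, and the other fits were not. Alternatives covered the samples fitted, the variance prior, dim probes, normalization, sex, weights, call rule and left-out pups.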

Additional observations from a re-analysis of the deposited data

Results flagged for a closer look

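Hba-a3 in G2 replicate 1, a male, stood apart from the other 5 pups of its group. Its log2 level was 11.16, and its gap to the next pup was 0.636 of the range of the group, above the limit of 0.625 for 6 samples. The check covered 24 ends in 12 sets of 6 values, and chance flags about 1 in 20 groups. The same pup was also the highest of G2 for Ahsp (9.69) and Alas2 (8.17), within the limit. Without it the log2 difference of Hba-a3 was −1.16 between G2 and G1 and 0.88 between G3 and G2 (limma adjusted p = 0.645 and 0.193).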

How the results depend on the processing

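The 12 log2 differences of the 4 genes were recomputed under each alternative, which gave 296 values. None passed the adjusted test (limma, smallest adjusted p 0.193), 285 kept the direction, and every difference of G2 from G1 and of G3 from G2 did. The joint fit, variance prior, dim probes, sex term, replicate block and call rules cannot change the difference itself. For these the direction was fixed in advance, so the count of values that kept it is not one of independent checks. The differences of G3 from G1 were near 0, and 11 of their values changed sign. Hbb was −0.058 in males alone and between −0.028 and 0.077 with single pups left out, and Hba-a3 was 0.092 in females alone. Without control males 1 and 2 together, Hba-a3, Ahsp and Alas2 were 0.15, 0.045 and 0.030. That alternative was chosen after seeing the data and left the sexes unbalanced in G1. With single pups left out the G2 difference from G1 of Hba-a3 ran from −1.16 to −0.77, and the largest unadjusted p was 0.0408 for Hba-a3, 0.0603 for Hbb, 0.0419 for Ahsp and 0.0701 for Alas2. The 96 values of the F-test and 92 of the sex term changed no call. Of the sex by exposure terms, with single pups left out, Ahsp ran from −0.49 to 0.28 in G2 and from −0.25 to 0.52 in G3, and Alas2 from −0.070 to 0.17 and from −0.022 to 0.21.

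The count of probes called depended on the setting, and the cause was not tested. In G2 against G1 it was 3, and 8 with a variance prior that follows expression, 8 without dim probes, 1 after quantile normalization, 0 in males, 1 in females, 0 at an adjusted p of 0.01, 0 without control males 1 and 2, and 0 to 4 with single pups left out. In G3 against G1 it was 18, and 475 with all 3 groups fitted together, 247 with the prior that follows expression, 380 without dim probes, 465 with array weights, 1 in males, 0 in females, 1 with the 2-fold limit, 0 at 0.01, 1 without both control males, and 0 to 1434 with single pups left out (the highest without G1 replicate 6). In G3 against G2 it was 4, and 1 with all groups, 7 with that prior, 11 without dim probes, 1 in males, 1 in females, 0 with the 2-fold limit, 1 at 0.01, and 1 to 6 with single pups left out. With the replicate number as a block (replicate block) the count was 0 in each comparison and the 4 genes changed no call. The numbers did not pair the pups (correlations of deviations from −0.331 to 0.223). The sex term and the block could not be fitted together, since the numbers are nested in sex.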

Other observations

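Some genes of the heme, enzyme, regulator and iron lists were higher in both exposed groups than in G1, unlike the 4 erythroid genes. Clpx, a mitochondrial unfoldase that activates the first enzyme of heme synthesis in yeast, was 8.58 ± 0.26 (SD, n = 6) in G1, 8.97 ± 0.27 in G2 and 9.25 ± 0.20 in G3, and its G3 pups (8.98 to 9.48) did not overlap the controls (8.32 to 8.92), as was so for 1.95% of all probes. The log2 difference of G3 from G1 was 0.67 (standard error 0.13, limma adjusted p = 0.0584). Catalase (Cat) was 13.49 ± 0.26 in G1, 13.86 ± 0.18 in G2 and 14.10 ± 0.05 in G3, with a difference of 0.61 for G3 (standard error 0.10, limma adjusted p = 0.0584) and likewise no overlap between G3 and G1. Hif1a differed by 0.36 in G2 and 0.47 in G3 from G1, Nfe2l2 by 0.34 and 0.41, and Hfe by 0.44 and 0.37. Other genes of these lists were lower in both exposed groups. Among them Pklr differed by −0.37 in G2 and −0.70 in G3 from G1, Ucp2 by −0.42 and −0.36, and Eif2ak1 by −0.19 and −0.33. None passed the adjusted test.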
